A study of Mus musculus with 20 samples.

Results

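H3K4me3, the trimethyl mark on lysine 4 of histone H3, was mapped by CUT&RUN, in which an antibody directs a nuclease to release the DNA it binds, in mouse brain nuclei labelled excitatory or inhibitory. The regions described here had an H3K4me3 peak in both inhibitory libraries and in neither excitatory library, and are called inhibitory-only regions. Peaks of the 4 H3K4me3 libraries on chromosomes 1 to 19 and X merged into 345930 regions, and 11398 of them, or 3.29%, met this rule. The members were thus selected on measured H3K4me3 peaks, so their H3K4me3 values are a description and carry no test. All libraries came from FACS-sorted nuclei of whole brain of 8-week-old mice that carried a floxed Sun1 allele (Sun1 f/f) and Emx1Cre (+), and this genotype was shared by the excitatory and the inhibitory groups. The other antibodies were against H3K27ac, H3K4me1, H3K27me3 and EGR1, with 2 libraries per antibody and nuclear type. As background, Emx1 drives Cre in the dorsal forebrain lineage, which gives rise to cortical excitatory neurons and glia. No source used here states the sorting gate for the inhibitory nuclei.

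H3K4me3 marks the promoters of active and poised genes, and weaker, narrower H3K4me3 is also found at active enhancers. H3K4me1 marks enhancers, H3K27ac marks promoters and enhancers in their active state, and H3K27me3 is laid down by Polycomb complexes at silenced developmental genes. EGR1 is a zinc-finger transcription factor induced by neuronal activity.

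A minority of the inhibitory-only regions lay on promoters, and the promoters they covered were poor in CpG dinucleotides. In the RefSeq promoter table of GRCm38.p6, the assembly behind mm10, 96 promoters of 88 genes overlapped a member. Each promoter spans 250 bases before to 50 after a start. The median ratio of observed CpG dinucleotides to the number given by the C and G content was 0.315 in these 96 promoters. It was 0.782 in 12258 promoters that overlapped regions with a peak in all 4 libraries and 0.574 over all 21044 promoters. The 195 promoters that overlapped excitatory-only regions, defined by the mirror rule, had a median ratio of 0.393. Of the promoters that lay wholly inside a member, the first 4 in the order of peak strength are printed 5′ to 3′ on the gene's strand, to show this CpG-poor sequence. Capitals mark matches, on either strand, to 6 motifs that were searched. These were the E-box CAGCTG, a second E-box, CAGATG, the homeodomain core TAATTA, the EGR motif GCGTGGGCG, the cyclic AMP response element TGACGTCA and the TATA box, TATAAA.
Hopx: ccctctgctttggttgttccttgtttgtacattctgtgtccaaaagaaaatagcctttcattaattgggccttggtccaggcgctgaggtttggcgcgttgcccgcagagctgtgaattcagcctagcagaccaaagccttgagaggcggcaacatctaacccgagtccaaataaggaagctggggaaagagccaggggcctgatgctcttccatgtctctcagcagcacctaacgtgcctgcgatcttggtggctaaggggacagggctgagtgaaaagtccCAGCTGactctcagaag
Dio1: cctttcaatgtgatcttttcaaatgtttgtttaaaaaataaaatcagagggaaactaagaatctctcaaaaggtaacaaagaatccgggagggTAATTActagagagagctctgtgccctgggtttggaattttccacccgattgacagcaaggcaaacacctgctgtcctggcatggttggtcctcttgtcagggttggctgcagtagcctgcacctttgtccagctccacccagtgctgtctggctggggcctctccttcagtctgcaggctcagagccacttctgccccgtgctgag
Nr0b2: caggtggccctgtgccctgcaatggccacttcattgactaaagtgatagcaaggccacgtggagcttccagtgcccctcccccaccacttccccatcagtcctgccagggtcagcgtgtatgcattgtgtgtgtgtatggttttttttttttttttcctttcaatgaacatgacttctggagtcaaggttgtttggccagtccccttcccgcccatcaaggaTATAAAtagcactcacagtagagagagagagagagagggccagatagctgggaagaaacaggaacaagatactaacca
Krt71: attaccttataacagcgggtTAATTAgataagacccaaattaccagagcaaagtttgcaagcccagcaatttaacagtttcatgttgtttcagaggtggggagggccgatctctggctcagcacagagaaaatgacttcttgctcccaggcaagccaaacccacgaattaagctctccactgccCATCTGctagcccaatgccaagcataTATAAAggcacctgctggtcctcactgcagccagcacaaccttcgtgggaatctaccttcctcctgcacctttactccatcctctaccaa

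The Hopx promoter (chr5:77115074-77115373, minus strand, CpG ratio 0.381) lies in the member chr5:77114797-77115552. Hopx encodes a small homeodomain-only protein that does not bind DNA. The Dio1 promoter (chr4:107307119-107307418, minus strand, CpG ratio 0.162) belongs to the type 1 iodothyronine deiodinase, which activates thyroid hormone. The Nr0b2 promoter (chr4:133553126-133553425, plus strand, CpG ratio 0.162) belongs to the orphan nuclear receptor SHP, a repressor of bile acid synthesis in liver. The Krt71 promoter (chr15:101743048-101743347, minus strand, CpG ratio 0.241) belongs to a keratin of the hair follicle and was named after its values were seen. The first E-box was present in 24.0% of the 96 promoters against 15.7% of all promoters, and the second in 24.0% against 14.4%. The homeodomain core was present in 5.21% against 4.47%, the cyclic AMP response element in 3.13% against 2.26% and the TATA box in 14.6% against 12.7%. The EGR motif was found in 0 of the 96 and in 0.836% of all promoters. No motif contains another. The promoters at excitatory-only regions held the first E-box in 28.7% and the second in 20%, so the higher E-box share was not limited to the inhibitory-only set.

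The members were shorter than the shared regions and mostly away from promoters. Their median width was 532 bp, with the 25th and 75th percentiles at 374 and 754 bp, against a median of 1734 bp for regions shared by all 4 libraries. The median was 565 bp for excitatory-only regions and 206 bp over all union regions, so the members were wider than most regions. Any overlap of a region with a peak of another antibody counted as a peak there. The part that width has in the shares of regions with such a peak, given below, was not tested. Only 505 members, or 4.43%, lay within 2 kb of the start of a protein-coding gene, 7710 (67.6%) lay in gene bodies and 3183 (27.9%) between genes. Over all union regions the shares were 7.15%, 53.2% and 39.7%. The shared regions lay at starts in 61.1% of cases, and 8.72% of the 7279 excitatory-only regions did. The median distance of a member to a coding start was 33.7 kb, and 4438 members (38.9%) were over 50 kb away. Within 2 kb of an excitatory H3K4me3 peak lay 5906 members (51.8%). Of the excitatory-only regions, 41.7% lay within 2 kb of an inhibitory H3K4me3 peak.

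**Figure D1:**
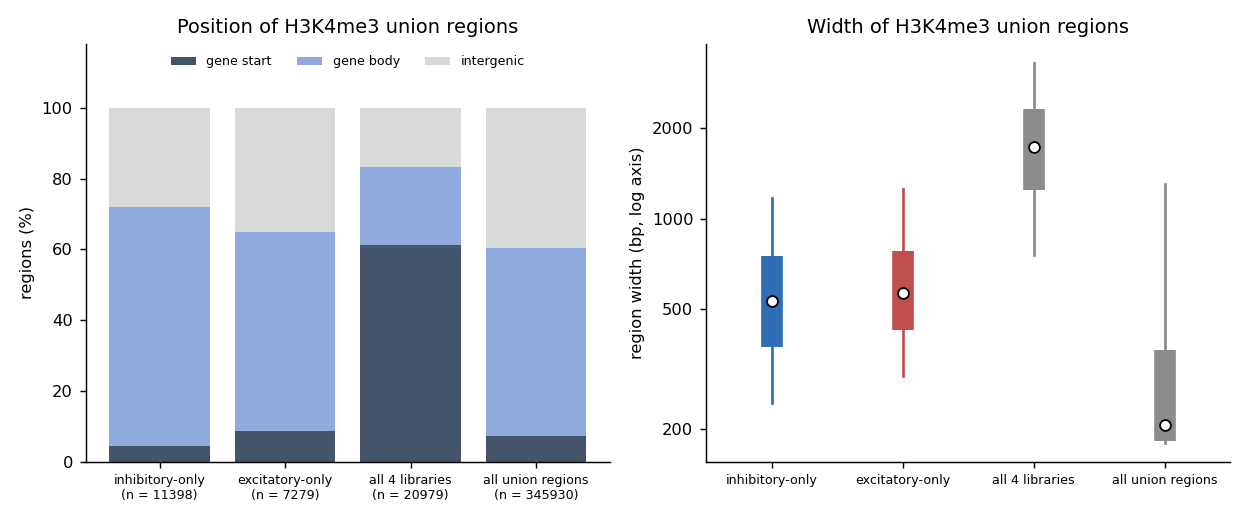
Position (left, percent of regions) and width (right, bp on a log axis) of H3K4me3 union regions in 4 sets. Boxes span the 25th to 75th percentile, lines the 5th to 95th, and circles are medians; inhibitory-only regions have a median of 532 bp and 4.43% of them lie at gene starts.

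Most members rested on weak H3K4me3 peaks. The authors' −log10 p of the weaker of the 2 inhibitory peaks ran from 1.31 to 14.5 with a median of 2.60, against a median of 9.91 for regions shared by all 4 libraries. A q-value below 0.05 was reached in both inhibitory libraries by 3067 members (26.9%), and a −log10 p of at least 3 by 3799 (33.3%). Just inside the rule, 285 members had a weaker peak with a −log10 p under 1.5. Just outside it, 9875 regions had a peak in both inhibitory libraries and in exactly 1 excitatory library, 8588 of them in excitatory replicate 2, and in 102 of the 9875 the excitatory peak had a −log10 p under 1.5. The excitatory H3K4me3 lists held 79135 and 163053 peaks, the inhibitory ones 159364 and 83532. Without excitatory replicate 2 the rule would keep 20028 regions, without inhibitory replicate 1 it would keep 44383, and without inhibitory replicate 2 it would keep 115648. Peak lists hold no reads, so depth is unknown and no counting interval can be given. In these bulk libraries fewer nuclei of a type and less signal per nucleus cannot be told apart.

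Members were found on every chromosome used, from 2.71% of the union regions of chromosome 19 to 4.18% of those of chromosome X. On chromosome X there were 166 members and 24 excitatory-only regions. The excitatory-only share was 0.604% there and between 1.81% and 2.48% on the other chromosomes.

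Strong members at gene starts included those at Ly6g6f with Ly6g6d, Ccdc32, Hopx and Dio1. The strongest lay inside Ly6g6f and within 2 kb of a start of each of both Ly6 genes, which encode surface proteins and lie in the major histocompatibility region (chr17:35082561-35083831), with −log10 p of 12.6 and 16.9 in the inhibitory libraries. H3K27ac peaks covered 0% and 0% of this region and its 500 bp flanks, its window, in excitatory libraries and 49.7% and 53.2% in inhibitory ones. H3K4me1 covered 0% and 0% against 32.5% and 40.2%. The groups did not overlap for either mark at Ly6g6f, and no H3K27me3 was called there. At Hopx the H3K4me3 −log10 p was 11.2 and 10.9, and H3K27ac covered 0% and 0% against 20.3% and 16.7%. H3K27me3 covered part of the Hopx window in every library, 74.1% and 31.4% in excitatory and 54.2% and 68.4% in inhibitory nuclei, so these groups overlapped. At Dio1 (chr4:107306679-107307707) the −log10 p was 10.2 and 13.5. There H3K27ac covered 0% and 0% in excitatory and 46.0% and 41.5% in inhibitory libraries, and the difference after quantile normalization was 39.8 percentage points ± 8.45 (SE) at an adjusted p of 0.116 from limma. H3K4me1 covered 0% and 0% against 82.9% and 69.4% at Dio1, a difference of 74.7 ± 12.4 (limma adjusted p = 0.0745). Neither passed 0.05, although the groups did not overlap.

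Nr0b2 had −log10 p of 6.78 and 7.71, and H3K27ac covered 0% and 0% of its window in excitatory and 40.4% and 58.3% in inhibitory libraries. At Krt71 the H3K27ac values were 4.07% and 13.3% against 57.4% and 53.8%. Thap3, which encodes a THAP-domain zinc-finger protein, had H3K27ac over 0% and 0% against 55.4% and 55.4%. Taar3, a trace amine receptor gene, had 0% and 19.2% against 57.8% and 63.5%. At each of these genes both inhibitory values lay above both excitatory ones. Among the first 20 members at starts by peak strength, 16 had this order of H3K27ac, 1 the reverse and 3 overlapped. Over all 11398 members 6213 (54.5%) had it, against 11.3% of all union regions, and 237 (2.08%) had the reverse, against 7.15%. Chrm1, the M1 muscarinic acetylcholine receptor gene of cortical and hippocampal neurons, went the other way. Its member (chr19:8661573-8662888) had H3K4me3 −log10 p of 8.28 and 11.8, while H3K27ac covered 35.1% and 36.3% in excitatory and 0% and 0% in inhibitory libraries, a difference of -39.4 ± 8.51 (limma adjusted p = 0.116). H3K27me3 at this Chrm1 member covered 7.38% and 47.5% against 100% and 52.7%. Within 2 kb of the Chrm1 starts H3K4me3 itself was higher in excitatory libraries, covering 21.1% and 32.1% against 8.94% and 9.67%. Chrm1 also held an excitatory-only region in the body or within 5 kb. Sirt4, a mitochondrial sirtuin gene, had H3K27ac of 26.6% and 15.8% against 0% and 32.9%, where the groups overlapped.

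Away from starts, the strongest member of all lay in Nod2, the gene of a sensor of bacterial cell walls (chr8:88664207-88665563), with −log10 p of 15.4 and 14.5. H3K4me1 covered 0% and 0% of its window in excitatory and 59.4% and 93.8% in inhibitory libraries, and H3K27ac 19.5% and 0% against 46.0% and 36.8%. The next distal members lay 148 kb from Pgrmc2, in Adcy3, an adenylyl cyclase gene, in Ntn1, which encodes the axon guidance protein netrin-1, and in Itpr2, an inositol trisphosphate receptor gene. The member near Pgrmc2 had H3K27ac over 0% and 0% against 32.2% and 32.7%. The Ntn1 member had H3K27ac over 0% and 13.4% against 64.1% and 51.3%, and H3K4me1 over 6.88% and 0% against 69.3% and 80.3%. At Itpr2 H3K27ac covered 0% and 20.8% against 71.9% and 61.0%. In these 5 distal members both inhibitory libraries lay above both excitatory ones for H3K27ac, an order that 54.5% of all members and 11.3% of all regions had. The widest members, of 2245 to 2527 bp, lay in Eya2, Slc4a4, Jdp2, Rptor and Dpp6. The member in Slc4a4, a bicarbonate transporter gene of astrocytes, had H3K27ac over 9.78% and 20.4% against 35.2% and 24.6%. Its H3K4me1 lay the other way, 33.4% and 46.0% against 20.2% and 12.1%, again with no overlap.

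To ask whether marks that the rule did not use also separated the nuclear types at the members, the share of members with a peak of each other antibody was counted per library. H3K27ac peaks lay on 25.1% and 34.8% of the members in excitatory libraries and on 68.1% and 70.7% in inhibitory ones. The means were 30% ± 6.82 (SD, n = 2) and 69.4% ± 1.82 (SD, n = 2), and the groups did not overlap. Over all union regions the same libraries had 16.4% and 22.6% against 17.5% and 18.6%. H3K4me1 peaks lay on 59.9% and 68.4% against 86.4% and 87.9% of the members. Over all regions the excitatory libraries had the higher H3K4me1 share, 35.1% and 38.9% against 31.5% and 29.6%. H3K27me3 peaks lay on 16.0% and 16.9% of the members in excitatory and 12.0% and 10.8% in inhibitory libraries. Over all regions this order was turned round, with 13.4% and 15.3% against 19.9% and 18%. EGR1 peaks lay on 22.9% and 24.3% against 20.5% and 36.6% of the members, and these groups overlapped. With 2 libraries a side, an exact permutation test (two-sided) cannot go below p = 0.333, which H3K27ac, H3K4me1 and H3K27me3 reached (adjusted over the 4 antibodies, 0.444), and EGR1 had an exact p of 1.

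The excitatory-only regions had the opposite order, with H3K27ac on 39.4% and 52.5% of them in excitatory and 10.3% and 11.9% in inhibitory libraries, and H3K27me3 on 21.2% and 25.8% against 41.1% and 38.5%. The excitatory H3K27ac lists were also the weaker ones, with a q-value below 0.05 for 2.57% and 4.94% of their peaks against 31.8% and 35.1% in the inhibitory lists. For H3K4me1 the excitatory lists were again the weaker ones, at 0.0087% and 0.219% against 1.43% and 9.61%. The part that the strength of these lists has in the results for both marks was not tested.

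**Figure D2:**
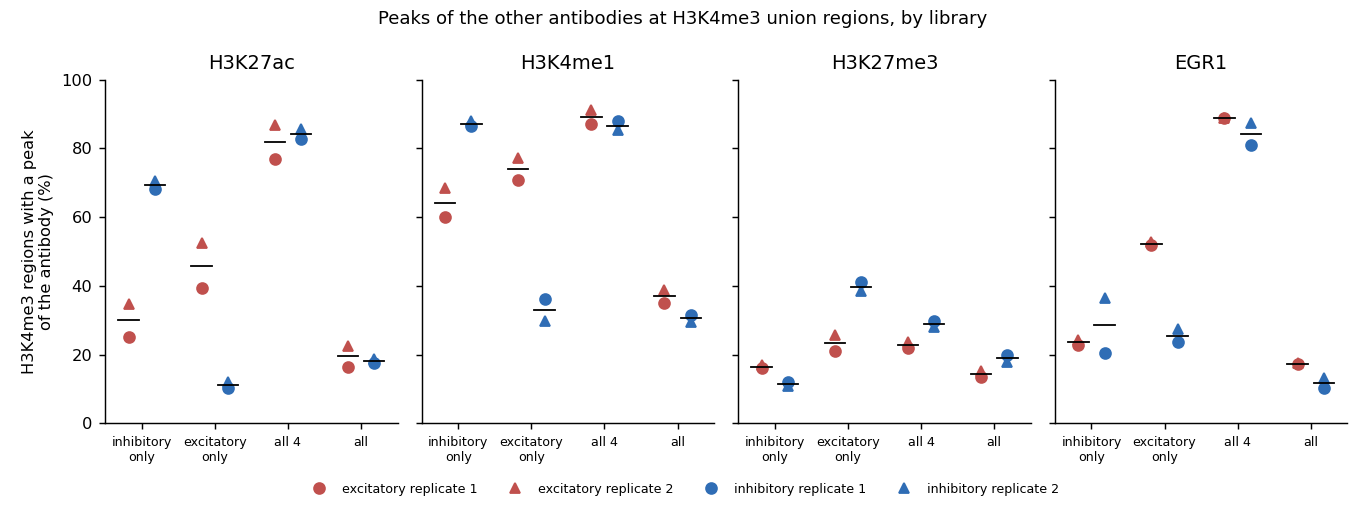
Percent of H3K4me3 regions with a peak of each of 4 other antibodies (y axis), per library, for inhibitory-only, excitatory-only, shared (all 4) and all union regions. Bars are means of 2 libraries; at the inhibitory-only regions H3K27ac lies at 25.1% and 34.8% in excitatory and 68.1% and 70.7% in inhibitory libraries.

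Region by region, the percent of each window that was covered by peaks was fitted with limma over all union regions with coverage in at least 2 libraries. For H3K27ac 0 of 108064 regions (0%) passed an adjusted p of 0.05. At an unadjusted p under 0.05, 18.3% of all regions were higher in inhibitory and 12.3% higher in excitatory nuclei. Among the 8898 members that passed the coverage filter these numbers were 4108 (46.2%) and 79 (0.888%). A pattern of peaks in both inhibitory and no excitatory library, which needs no filter, was shown for H3K27ac by 2882 of all 11398 members (25.3%) against 3.5% of all regions. The mirror pattern was shown by 90 members (0.79%) against 3.03%.

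For H3K4me1 0 of 182388 regions (0%) passed in limma. At an unadjusted p under 0.05, 15.4% of all regions were higher in inhibitory and 15.8% higher in excitatory nuclei, and the counts among 10735 members were 3961 (36.9%) and 149 (1.39%). Of all members, 1366 (12.0%) had H3K4me1 in both inhibitory and no excitatory library against 3.59% of all regions, and 144 (1.26%) had the mirror pattern against 7.94%. For H3K27me3, where 0 of 101965 regions (0%) passed in limma, the members leaned towards the excitatory side. At an unadjusted p under 0.05, 652 of 2543 members (25.6%) were higher in excitatory nuclei against 9.87% of all regions, and 139 (5.47%) were higher in inhibitory nuclei against 11.2%. H3K27me3 in both excitatory and no inhibitory library was found at 524 of all members (4.6%) against 1.85% of all regions, and the mirror pattern at 207 (1.82%) against 3.9%. None of these differences in the 3 histone marks is called for a single member.

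EGR1 was the antibody with adjusted calls. Of 4143 members with EGR1 coverage in at least 2 libraries, 539 were higher in inhibitory and 203 higher in excitatory nuclei by limma at an adjusted p of 0.05, against 3.35% and 12.9% of the 78302 regions tested. Without quantile normalization the members' calls were split 462 to 471. Fewer members were called with any 1 of the 4 libraries left out. Such fits have 1 library on a side, and the cause of the lower number was not tested. The members' median fitted difference was 8.51 percentage points with all libraries. It was 11.7 without inhibitory replicate 1, 1.92 without inhibitory replicate 2, 12.2 without excitatory replicate 1 and 12.6 without excitatory replicate 2. The calls were 0 without the coverage filter and 0 with a replicate block. Each of these alternatives ends the calls at Abcc12 and Sipa1l2 given next. In both inhibitory and no excitatory library EGR1 was found at 591 of all members (5.19%) against 0.669% of all regions, and the mirror pattern at 431 (3.78%) against 4.45%. A member in Abcc12, an ABC transporter gene (chr8:86527365-86527672), was among those with the largest differences, with EGR1 over 0% and 2.29% in excitatory and 51.8% and 52.5% in inhibitory libraries. The fitted difference was 63.0 ± 3.94 percentage points (limma adjusted p = 0.0426). On the other side, a member 53.1 kb from Sipa1l2 had EGR1 over 55.1% and 66.2% against 0% and 0%, a difference of -51.3 ± 5.26 (limma adjusted p = 0.0426). That Sipa1l2 member had no H3K27ac in any library.

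In the inhibitory libraries most members carried H3K27ac and H3K4me1 together. Both marks were present in both inhibitory libraries at 6455 members (56.6%), against 11.3% of all union regions. Regions shared by all 4 libraries had both marks more often, in 64.97%. H3K4me1 but not H3K27ac was in both libraries at 2938 (25.8%), and H3K27ac but not H3K4me1 at 272 (2.39%). Among all union regions these shares were 12.97% and 1.59%. At 1733 members (15.2%) neither mark was in both libraries, and at 709 (6.22%) neither was in any inhibitory library, against 60.3% of all union regions. H3K27me3 was present in both inhibitory libraries at 742 members (6.51%), and EGR1 at 1909 (16.7%). Among all union regions these shares were 10.9% and 8.37%, and among excitatory-only regions 29.9% and 16.0%. The EGR1 share was thus close to that of the excitatory-only regions. By position, the mean share with H3K27ac in inhibitory libraries was 52.3% at starts, 68.1% in gene bodies and 75.1% between genes, while the excitatory means were 21.8%, 29.8% and 31.7%. Over all union regions the inhibitory means were 51.7%, 19.2% and 10.4% and the excitatory means 52.8%, 19% and 14.2%, so at starts the members' inhibitory share was close to that of all regions at starts, and their excitatory share was below it. Members more than 2 kb from any excitatory H3K4me3 peak had H3K27ac in 73.9% in inhibitory and 30.4% in excitatory libraries, against 65.2% and 29.6% for the nearer ones.

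The shares were higher for members with stronger H3K4me3 peaks. H3K27ac lay on 53.2% of the 2743 members with a smaller −log10 p under 2 and on 94.3% of the 713 members at 5 or more, as means of the inhibitory libraries. In the excitatory libraries the H3K27ac means were 23.0% and 42.4%. H3K27me3 stood at 12.0% and 11.6% in the inhibitory libraries and at 13.2% and 27.1% in the excitatory ones. EGR1 lay on 11.5% and 20.9% of the weakest and 47.1% and 72.2% of the strongest members in the inhibitory libraries. In the excitatory ones it lay on 16.7% and 17.0% of the weakest and 36.6% and 38.3% of the strongest. The members were ranked here by the H3K4me3 values that chose them, so this order is a description.

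**Figure D3:**
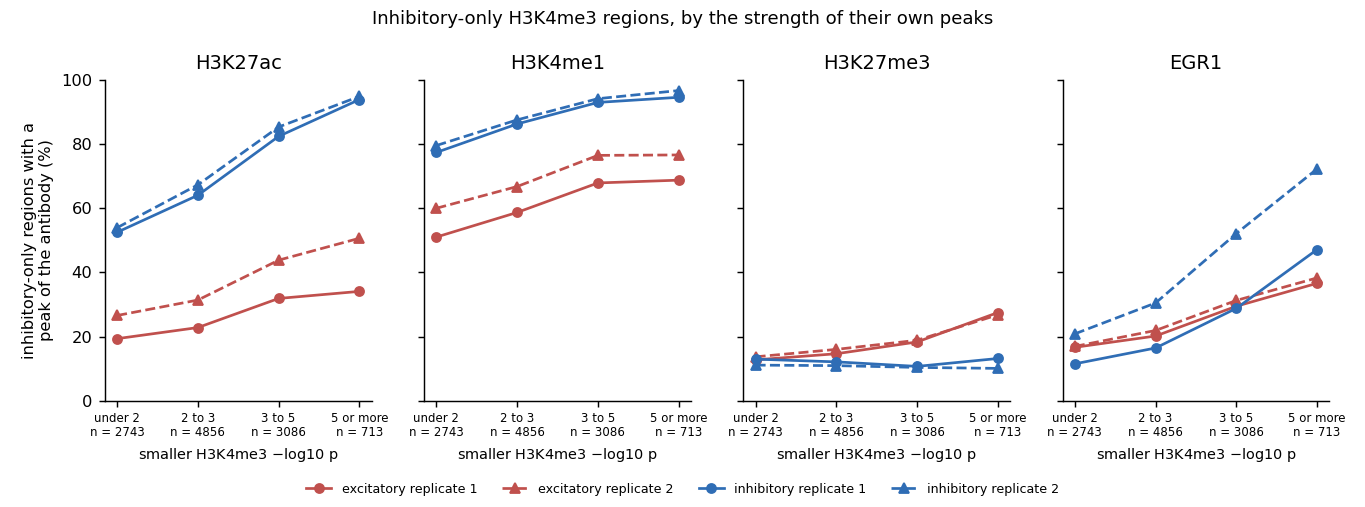
Percent of inhibitory-only regions with a peak of each other antibody (y axis), per library, in 4 classes of the smaller H3K4me3 −log10 p of the 2 inhibitory libraries (x axis, with the number of regions). H3K27ac goes from a mean of 53.2% to 94.3% in inhibitory libraries, and H3K27me3 from 13.2% to 27.1% in excitatory ones.

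The main GABA marker genes held none of the inhibitory-only regions, while other genes of the inhibitory neuron list did. Of all 21627 protein-coding genes, 2.32% had a member within 2 kb of a start and 18.8% had one in the body or within 5 kb. Gad1 and Gad2, which encode the GABA-synthesizing enzymes, and Slc32a1, the vesicular GABA transporter gene, held 0 members each. H3K4me3 covered 8.87% and 30.8% of the window around the start of Slc32a1 in excitatory and 10.1% and 0% in inhibitory libraries, and an excitatory-only region lay there. At Gad1 the values were 12.8% and 14% against 15.0% and 13.2%, and at Gad2 7.27% and 28.9% against 39.6% and 50.9%. H3K27ac was at 0% around all 3 starts in both inhibitory libraries. In excitatory libraries it covered 19.3% and 0% at Gad1, 0% and 0.175% at Gad2 and 0% and 0% at Slc32a1. H3K27me3 covered 38.1% and 57.2% of the Gad2 window in excitatory and 75.6% and 49.6% in inhibitory libraries, so these groups overlapped. H3K4me1 covered 32.5% and 51.8% against 71.4% and 76.1% at Gad2, with no overlap. At Gad1 and Slc32a1 the groups overlapped for H3K4me1. Of the 34 genes of the inhibitory neuron list, 4 (11.8%) had a member at a start (Lhx6, Dlx5, Calb2 and Htr3a) and 4 had an excitatory-only region there (Sp9, Slc32a1, Tac1 and Cck). In the body or within 5 kb, 10 (29.4%) had a member and 11 (32.4%) an excitatory-only region. The list held 37 members, of which 20 lay in Reln, 4 in Erbb4, which encodes a neuregulin receptor, and 3 in Kcnc1, a potassium channel gene. Sst, Vip, Pvalb and Npy, which mark interneuron classes, held no member. The label inhibitory is therefore used here for the libraries and not for a cell type.

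Of the 13 lists, those of cerebellar granule neurons and of the thalamus, hypothalamus and brainstem had the highest shares of genes with a member at a start, and these differences between lists were not tested. Of 25 cerebellar granule neuron genes, 8 (32.0%) had a member at a start and 20 (80.0%) in the body or within 5 kb, against 2 and 7 with an excitatory-only region. En2 and Cbln1 had both kinds of region at a start. A single member lay at a start of both Zic1 and Zic4, and Calb2 is on the inhibitory neuron list as well. Together these 25 genes held 102 members and 9 excitatory-only regions, each counted once for every gene that held it. In the list for thalamus, hypothalamus and brainstem, 15 of 38 genes (39.5%) had a member at a start and 19 (50%) in the body, against 2 and 8. Of 30 excitatory forebrain genes, 1 had a member at a start and 13 in the body, while 6 and 17 had an excitatory-only region. Striatal projection neuron genes had 2 and 6 of 20, with 4 and 12 for excitatory-only regions, and Purkinje and molecular layer genes had 2 and 6 of 15, with 0 and 3. Among markers of other cells, astrocyte genes had 2 and 5 of 16, oligodendrocyte genes 1 and 2 of 16, microglia genes 0 and 2 of 16, vascular genes 0 and 1 of 16, and monoaminergic and cholinergic genes 0 and 2 of 18. The HOX clusters had 2 and 4 of 39 and the pan-neuronal genes 1 and 8 of 16. The part that the share of each cell type in the sorted nuclei has in these counts was not tested.

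**Figure D4:**
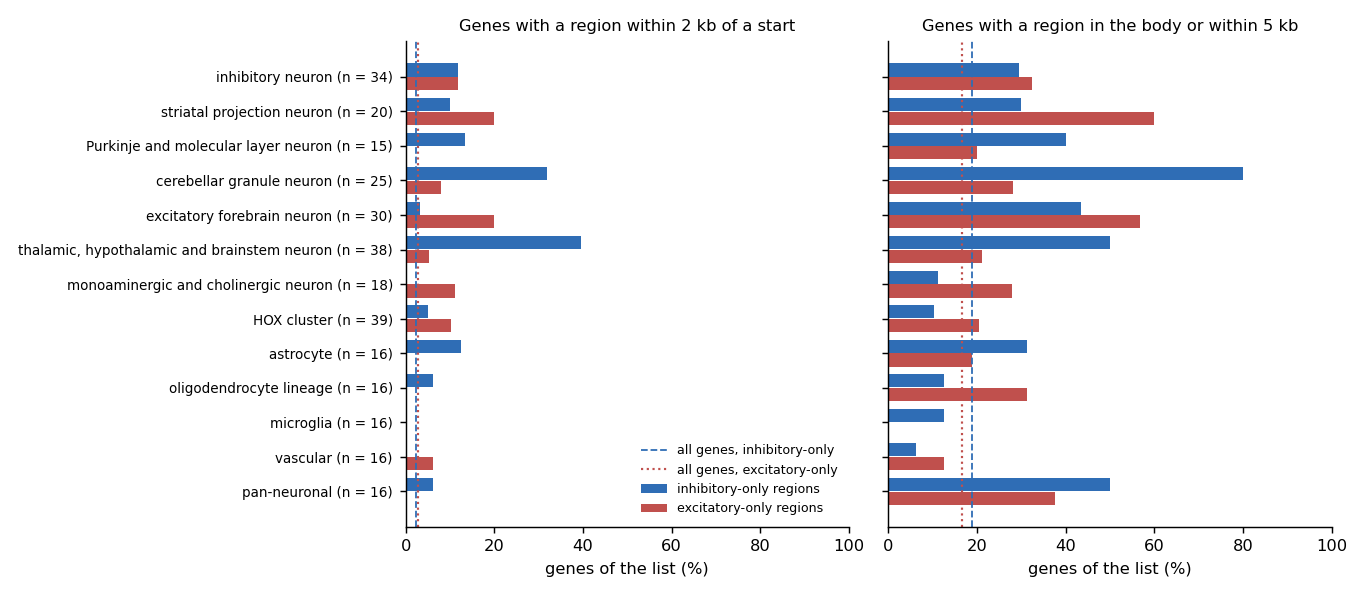
Percent of the genes of 13 lists (number of genes in brackets) with an inhibitory-only or excitatory-only H3K4me3 region within 2 kb of a start (left) or in the body or within 5 kb (right). Vertical lines give all protein-coding genes, 2.32% and 18.8% for inhibitory-only regions; granule neuron genes reach 32.0% and 80.0%.

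Gabra6, a GABA-A receptor subunit gene of cerebellar granule cells, had 1 member (chr11:42314447-42315207) with −log10 p of 4.22 and 5.69. H3K4me3 covered 0% and 11.8% of its start window in excitatory and 55.2% and 52.6% in inhibitory libraries. H3K27ac at the Gabra6 member covered 0% and 45.7% against 27.3% and 0%, so the groups overlapped. H3K4me1 covered 0% and 16.7% against 54.3% and 33.3%, with no overlap. Gabra6 also held 1 excitatory-only region in the body or within 5 kb. Tbr1, a T-box gene of cortical and cerebellar glutamatergic neurons, had 2 members, the stronger one (chr2:61811712-61812752) with −log10 p of 13.3 and 11.5, the seventh of all members. H3K27ac at that Tbr1 member covered 0% and 35.7% in excitatory and 22.4% and 14.3% in inhibitory libraries, so the groups overlapped. Neurod1, a neuronal bHLH gene, had a member 2.04 kb from the gene (chr2:79458682-79459845) with −log10 p of 5.0 and 6.34. H3K27me3 covered 49.5% and 57.3% of that Neurod1 window in excitatory and 0% and 0% in inhibitory libraries. In the Neurod1 start window the excitatory H3K4me3 was the higher, at 27.9% and 40.8% against 6.85% and 14.1%. Barhl1, a homeobox gene of granule cells, had 1 member. Atoh1 and Eomes had 0 members. H3K4me3 covered 0% and 33.0% of the Atoh1 start window in excitatory and 54.6% and 62.8% in inhibitory libraries. At Eomes it covered 18.1% and 38.3% against 82.9% and 92.0%. Slc17a7 and Slc17a6, the vesicular glutamate transporter genes, held no member.

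Other genes with members at a start included Cbln1, a granule cell synaptic organizer, and Zic1 and Zic4, zinc-finger genes of the cerebellum. The homeobox genes Irx5, Lbx1, Lhx5, Lhx9 and Shox2 had members at a start as well. Cbln1 also had an excitatory-only region at a start. H3K4me3 covered 21.1% and 29.4% of its start windows in excitatory and 24.6% and 21.8% in inhibitory libraries, so the groups overlapped. H3K4me1 at the Cbln1 member lay on the excitatory side. It covered part of that window in both excitatory libraries and 0% and 0% in inhibitory ones. H3K4me1 at the Lbx1 member covered 0% and 14.8% in excitatory and 58.0% and 60.2% in inhibitory libraries, and at the Lhx5 member 0% and 0% against 59.0% and 84.1%. H3K27ac was absent there from both inhibitory libraries, and H3K27me3 covered part of both windows in both of them. H3K27ac lay on the excitatory side at the Lhx9 member, 37.8% and 21.1% against 0% and 0%. It did so at the Dlx5 member too, 31.2% and 19.1% against 0% and 0%. H3K4me1 covered 0% and 35.7% against 52.2% and 97.4% at Lhx9, while at Irx5 and Dlx5 the groups overlapped for it. The member at Zic1 and Zic4 had 0% of its window covered by each other antibody in every library. Gfap, the astrocyte intermediate filament gene, had a member with H3K27ac over 0% and 19.9% against 77.0% and 62.4% and H3K4me1 over 20.5% and 20.2% against 100% and 100%. At Calb2, which encodes calretinin, H3K27ac covered 0% and 23.3% against 51.4% and 65.2%. For both marks at Gfap and for H3K27ac at Calb2 the groups did not overlap.

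Many members shared a gene with others, most of all in long genes. A single member was held by 2343 genes and 5 or more by 428, and 2873 members lay in no gene window. The genes with the most were Nrxn3, a presynaptic adhesion gene, with 32, Negr1 and Rbfox3 with 25 each, Ntm with 24, Cacna1c, a calcium channel gene, with 22, and Fgf14, Rbfox1, Zfp521, Car10 and Plcb4 with 20 or 21. Nrxn3 and Rbfox1 span 1612 and 1528 kb, and per length Zfp521, with 7.10 members per 100 kb, Rbfox3 with 5.79 and Plcb4 with 5.46 stood highest of these genes. Rbfox3 encodes NeuN, a nuclear antigen of mature neurons. In Negr1 and Plcb4 there were 0 excitatory-only regions, and in Rbfox1 there were 11. At the 20 members in Plcb4, a phospholipase C gene, H3K27me3 was present at 10 and 8 in excitatory libraries and 0 and 0 in inhibitory ones, and H3K27ac at 7 and 8 against 14 and 11. At the 21 members in Zfp521 H3K27me3 was present at 8 and 10 against 1 and 0. In each of the other genes named in this paragraph it was present at 2 members or fewer in every library. Nrxn3 and Ntm each had 2 and 1 against 0 and 0, while Negr1 and Cacna1c each had 0 and 0 against 1 and 0.

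The H3K27me3 order of Plcb4 and Zfp521 was also seen in Slc4a4 and in several genes of the granule neuron list. These were named after their values were seen. Reln, which encodes the secreted protein reelin and is on the inhibitory neuron list as well, had 20 members, with H3K27me3 at 10 and 10 in excitatory and 0 and 0 in inhibitory libraries, and H3K27ac at 5 and 7 against 16 and 17. Chn2, a Rac GTPase-activating protein gene, had 14 members, with H3K27me3 at 6 and 7 against 0 and 0. Fat2, a cadherin gene of granule cells, had 12, with H3K27me3 at 4 and 7 against 1 and 0, and H3K27ac at 0 and 0 against 3 and 4. In Reln, Chn2 and Fat2 the H3K27me3 counts of the groups did not overlap. Meis1, a homeobox gene, had 10, with H3K27me3 at 6 and 6 against 0 and 0. In Grm4, a metabotropic glutamate receptor gene, 9 members had H3K27me3 at 2 and 1 against 0 and 0. In Slc4a4, 17 members had H3K27me3 at 6 and 8 against 0 and 0. Here too the excitatory counts were the higher ones.

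At gene starts, H3K27me3 in excitatory nuclei alone was more frequent among genes that held more members. H3K27me3 lay within 2 kb of a start in both excitatory and no inhibitory library for 457 genes, 2.11% of all, and in the mirror pattern for 1228 genes, 5.68%. Of the 4062 genes with a member these patterns were shown by 168 and 222. The excitatory pattern was shown by 29 of 315 genes with 5 to 9 members (9.21%) and by 24 of 113 genes with 10 or more (21.2%). The mirror pattern stood at 5.08% and 6.19% in these classes. The 113 genes had a median length of 353 kb against 17.3 kb over all genes. The 106 genes with 5 or more excitatory-only regions, of 311 kb median length, had the excitatory pattern in 1.89% and the mirror pattern in 14.2%. Of the 25 granule neuron genes, 11 had the excitatory pattern and 0 the mirror pattern, and all 11 held a member (Neurod1, Reln, En2, Uncx, Chn2, Zic1, Zic2, Zic4, Zic5, Fat2 and Etv1). Of the 30 excitatory forebrain genes, 8 (26.7%) had the excitatory pattern, 6 of them with a member, and 0 the mirror pattern. The H3K27me3 lists were weak throughout, with between 0.00488% and 0.00990% of their peaks at a q-value below 0.05, and the part of this in the pattern was not tested.

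**Figure D5:**
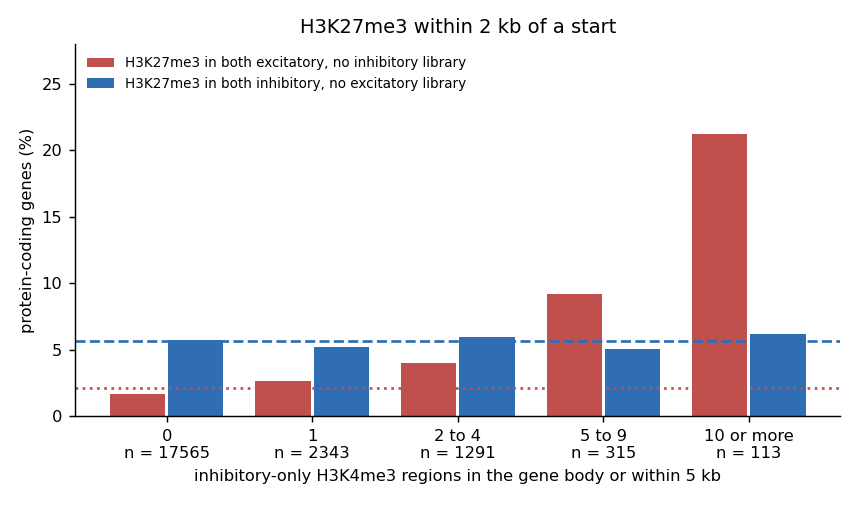
Percent of protein-coding genes (y axis) with H3K27me3 within 2 kb of a start in both libraries of one type and no library of the other, by the number of inhibitory-only H3K4me3 regions the gene holds (x axis). Horizontal lines give all genes, 2.11% and 5.68%; the excitatory pattern reaches 21.2% in genes with 10 or more regions.

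Of 1005 RefSeq miRNA hairpins, 4 overlapped a member, Mir7053, Mir7237, Mir3075 and Mir6407.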

How the data were processed

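Nuclei were profiled with 5 antibodies, 2 nuclear types and 2 libraries each, and groups came from the sample titles. The labels do not tie the libraries to separate animals, so p-values measure the spread between libraries only. Per the submitters' processing notes, the tools included MACS2 2.2.5, Bowtie2 2.3.5, SAMtools 1.12, Picard 2.25.0, cutadapt 1.18 and Trim Galore 0.5.0, with the build mm10; the sources used here give neither settings nor controls. Each library has its own peak list deposited by the authors, with a fold enrichment (a ratio) and, for each peak, a −log10 p-value and a −log10 of its q-value. EGR1 peak names carry other replicate numbers than the labels, which were followed.

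The percent of each union region and its 500 bp flanks covered by peaks of another antibody was quantile-normalized and fitted with limma 3.58.1 (R 4.3.3), for regions covered in at least 2 libraries, with Benjamini-Hochberg adjustment. The fit was tested on simulated data. Differences are inhibitory minus excitatory on the normalized scale, and the levels beside them are not normalized. Genes are those of RefSeq GRCm38.p6; 4354 of 21627 protein-coding genes had no start in the promoter table, and both ends were used. No genome was used, so sequences are promoters only.

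The members and gene lists were chosen with earlier results of these data known. Named were the first 20 members at starts and 5 distal ones by peak strength, the 5 widest, the 10 genes with most members, up to 5 called members per antibody and direction, up to 4 genes per list, and set marker genes; the text gives those most informative and says where a gene falls outside this rule. A named member is not reported here. Alternatives were stricter peaks, equal peak numbers, other merging, no flanks, no filter, no normalization, a replicate block and leaving out each library.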

Additional observations from a re-analysis of the deposited data

How the results depend on the processing

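The inhibitory-only regions numbered 7064 with H3K4me3 peaks of −log10 p at least 3 and 6573 with q below 0.05, and between 12744 and 115648 when 1 library was left out. For H3K27ac the members called went from 0 to 1947 without flanks, and between 0 and 1922 with 1 library left out. For H3K4me1 they went from 0 to 533 with peaks of −log10 p at least 3, 1724 with equal numbers of peaks and 2324 without flanks, and between 0 and 799 with 1 library left out. For H3K27me3 they went from 0 to 1 with the stricter peaks and 414 without flanks, and stayed at 0 with any 1 library left out. For EGR1 the 742 calls became 0 without the coverage filter, and between 0 and 100 with 1 library left out. With the replicate block there were 0 EGR1 calls. The labels give same-numbered libraries only a shared number. Their deviations from the group means correlated over regions at 0.0124 to 0.0193, which cannot show whether they shared an animal or a batch. The block left the histone marks at 0 calls, where the fit without it had 0 as well. The shares of members with a peak kept their direction in 15 of 16 alternatives. The exception was H3K27me3 with peaks of −log10 p at least 3, where the difference was 0.0439 in place of -5.05 percentage points. The cause was not tested in any of these cases. Leave-one-out fits with 1 library on a side assume that it varies like the others.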
